A study of Mus musculus with 12 samples.

Results

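The genes described here code for proteins that osteoclasts, osteoblasts and osteocytes make and use in bone: the osteoclast enzymes Acp5 and Ctsk, the metalloproteinases Mmp9 and Mmp13, the acidic matrix proteins Ibsp and Dmp1, and the mineralisation genes Alpl and Phex. They were brought together because transcripts of this kind were higher in tibialis anterior muscle of young dysferlin-null mice than in that of controls. The array holds 11 probe sets for them among 12422: those annotated with the 8 gene symbols, and 1 more, 97519_at, which has no annotation in the table used here and is called by its identifier. All 11 passed the filter on dim values described below. They were selected on the genotype difference in TA, so their TA values are given as a description with no test. The comparison of genotypes in QF did not choose them and is the one that was tested.

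The study measured total RNA of skeletal muscle, taken from mice at 3 weeks of age, on 12 one-colour arrays. The labels give 2 muscles as QF and TA, abbreviations used in this field for quadriceps femoris and tibialis anterior. The 4 groups, with 3 arrays each, were Dysf_null_TA, Control_TA, Dysf_null_QF and Control_QF. Dysf_null mice were of the line C57BL/10-SJL.Dysf (source label Dysf -/-), which is C57BL/10 with the defective Dysf allele that arose in SJL mice. Control mice were C57BL/10 (source label Dysf +/+). The null line therefore also carries SJL sequence around Dysf on chromosome 6, where none of the 8 named genes lies (Mmp9 is on chromosome 2, Ctsk on 3, Alpl on 4, Ibsp and Dmp1 on 5, Acp5 and Mmp13 on 9, and Phex on X). Muscle fibres need dysferlin to reseal tears in their outer membrane. Whether the 3 arrays of a group stand for 3 separate mice is not stated, so p-values rest on the spread among arrays, some of which may be technical.

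Bone is broken down by osteoclasts, large cells of the monocyte lineage that acidify the bone surface, dissolve its mineral and digest its collagen with cathepsin K and metalloproteinases. The cytokines RANKL and M-CSF drive their formation, and the transcription factors NFATc1, c-Fos and MITF switch on their enzymes. Osteoblasts lay down the collagen matrix and supply alkaline phosphatase and acidic phosphoproteins that govern its mineral, and osteocytes, which sit inside the matrix, keep making Dmp1 and Phex. Several of these genes are also used outside bone: macrophages can express Acp5, Ctsk and Mmp9, and injured or inflamed tissue can express Mmp9 and Mmp13.

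Values are intensities after quantile normalization, differences are Dysf_null minus Control on the log2 scale with the standard error (SE) that limma gave, and values under 23.02 (log2 4.53) were set to that floor before the fit. The arrays were of muscle in all groups: 15 defining fast muscle genes summed to between 162000 and 194400 on each of the 12. The sum was 162000 to 173900 in Dysf_null_TA, 172200 to 183300 in Control_TA, 170400 to 183200 in Dysf_null_QF and 186200 to 194400 in Control_QF. In QF it was thus lower in Dysf_null mice without overlap. None of the 15 passed the genotype test in either muscle (median difference -0.143 in TA and -0.085 in QF). In each genotype the QF array numbered 2 differed from the rest: its median r with the remaining 11 arrays was 0.876 in Dysf_null mice and 0.866 in Control mice, while the same median was 0.926 to 0.959 on the 10 remaining arrays. QF results for the 11 probe sets, and QF calls of other genes, are therefore also given without both. In these bulk samples fewer cells of a type and less RNA per cell cannot be told apart.

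Acp5 codes for tartrate-resistant acid phosphatase, the enzyme by which osteoclasts are stained. Its intensity was 249, 340 and 291.1 on the Dysf_null_TA arrays, against 71.77, 91.69 and 77.14 on the Control_TA arrays. In QF it was 216.8, 150.3 and 190.6 in Dysf_null mice and 114.7, 163 and 150.4 in Control mice. The Dysf_null_TA arrays lay above all 9 other arrays, the Control_TA arrays lay below both QF groups, and the QF genotypes overlapped. The TA means differed by 1.87 ± 0.25 (3.65-fold) and the QF means by 0.38 ± 0.25 (limma adjusted p = 0.964).

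Ctsk codes for cathepsin K, the collagen-cleaving protease of the osteoclast. The Dysf_null_TA arrays read 600.2, 680.1 and 577.7, against 210.3, 225.4 and 256.4 for Control_TA. The Dysf_null_QF arrays read 192.2, 444.4 and 328.4, against 254.1, 438.6 and 241.1 for Control_QF. Again the Dysf_null_TA arrays were the highest of the 12, while in QF the array numbered 2 was the highest in each genotype. The difference was 1.43 ± 0.29 in TA (2.69-fold) and 0.02 ± 0.29 in QF (limma adjusted p = 1).

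Upstream DNA of the genes was searched for 4 motifs on both strands, as a description of the letters only: AP-1 (TGANTCA), RUNX (ACCACA), NFAT (GGAAA) and the MITF E-box (CACGTG). AP-1 holds Fos and Jun proteins, and NFATc1 and MITF act in osteoclasts, whereas RUNX2 acts in osteoblasts. The window was the 250 bases before each transcription start in RefSeq (build GRCm38.p6), where 7 of the 8 symbols matched with 1 to 3 starts each. The 3 windows below are shown for the motifs they hold, AP-1 in Mmp13, the E-box in Dmp1 and NFAT in Acp5, and not for the size of a difference. Capitals mark every motif match.
Mmp13, chr9:7272264-7272513, plus strand: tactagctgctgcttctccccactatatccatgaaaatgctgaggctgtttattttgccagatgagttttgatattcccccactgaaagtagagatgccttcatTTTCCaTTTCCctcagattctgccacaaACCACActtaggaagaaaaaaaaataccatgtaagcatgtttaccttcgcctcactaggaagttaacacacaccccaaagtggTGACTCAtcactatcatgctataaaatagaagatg
Dmp1, start 1 of 2, chr5:104197325-104197574, plus strand: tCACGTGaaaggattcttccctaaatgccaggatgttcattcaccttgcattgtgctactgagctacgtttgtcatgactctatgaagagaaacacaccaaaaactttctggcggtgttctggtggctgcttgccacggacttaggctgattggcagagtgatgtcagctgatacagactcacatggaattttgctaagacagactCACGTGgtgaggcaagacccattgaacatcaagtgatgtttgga
Acp5, start 3 of 3, chr9:22130599-22130848, minus strand: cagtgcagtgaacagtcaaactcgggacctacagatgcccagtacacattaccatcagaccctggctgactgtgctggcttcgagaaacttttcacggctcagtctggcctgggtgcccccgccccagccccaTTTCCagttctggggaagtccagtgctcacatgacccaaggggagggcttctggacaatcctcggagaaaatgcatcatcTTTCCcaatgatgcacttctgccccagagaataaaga
In the Mmp13 window the AP-1 match TGACTCA began 35 bases before the start and the RUNX match 118 bases before it. An AP-1 match was found in 1 of the 7 genes (Mmp13), a RUNX match in 2 (Mmp13 and start 2 of Dmp1) and the E-box in 1 (Dmp1). NFAT letters were found in 4 (Acp5, Mmp13, Dmp1 and Alpl). Of all 27025 genes with such windows, 7.82% held the AP-1 letters, 15.9% the RUNX letters, 58.8% the NFAT letters and 6.86% the E-box. The motifs do not overlap one another in the 3 windows. The windows of Ctsk, Ibsp and Phex held none of the 4, which says only that these letters are not in 250 bases.

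Mmp13 codes for collagenase 3, which cuts fibrillar collagen and is made by osteoblasts, growth-plate chondrocytes and injured connective tissue. Its intensity was 208.5, 317 and 230 on the Dysf_null_TA arrays and 39.68, 49.48 and 74.55 on the Control_TA arrays. In QF it was 88.39, 66.12 and 73.12 in Dysf_null mice, against 23.38, 34.1 and 63.23 in Control mice. Mmp13 was the only 1 of the 11 probe sets whose Dysf_null arrays all lay above the Control arrays in QF as well as in TA. Such a separation in QF was found for 4.08% of all 10331 probe sets tested. The count rested on the QF arrays numbered 2: without Dysf_null_QF 2, or without both, it was 5 of 11 (Acp5, Mmp9 162369_f_at, Mmp13, Dmp1 and Alpl), beside 9.11% and 13.1% of all probe sets. Fewer arrays are separated more easily in general, and the cause of the higher count was not tested. The TA difference was 2.23 ± 0.40 (4.70-fold). The QF difference was 1.03 ± 0.40 (2.04-fold, unadjusted p = 0.0232), and the limma adjusted p of 0.574 did not pass. By replicate number the QF differences were 1.92, 0.96 and 0.21, and without both QF arrays numbered 2 the mean was 1.09 (adjusted p = 0.692).

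Mmp9 codes for gelatinase B, a protease of osteoclasts and of neutrophils. Probe set 99957_at read 189.5, 184.5 and 227.6 in Dysf_null_TA, against 11.25, 11.04 and 11.05 in Control_TA, all under the floor. In QF the same probe set read 38.86, 119.5 and 105.5 in Dysf_null mice, against 59.54, 127.3 and 26.65 in Control mice. Thus the Control_TA arrays were the lowest of the 12 and the QF genotypes overlapped over a wide range. The Dysf_null_TA level was at least 8.67-fold that of Control_TA (at least 3.12 on the log2 scale), and the QF difference was 0.43 ± 0.54 (limma adjusted p = 1). A second probe set for Mmp9, 162369_f_at, was above the floor on 4 arrays, 2 of Dysf_null_TA (36.78 and 29.27) and 2 of Dysf_null_QF (25.54 and 25.45). Its groups overlapped in both muscles, with differences of floored values of 0.34 in TA and 0.10 in QF (limma adjusted p = 1). All Control arrays and 1 array of each Dysf_null group were at the floor, so these values do not give a size.

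Ibsp codes for bone sialoprotein, an acidic glycoprotein of mineralising matrix. Probe set 100476_at read 167.2, 221.5 and 156.8 in Dysf_null_TA and 41.45, 21.62 and 19.52 in Control_TA, where 2 of the 3 arrays were at the floor. It read 8.117, 38.84 and 60.43 in Dysf_null_QF and 24.62, 61.76 and 53.58 in Control_QF. The Dysf_null_TA arrays stood above all 9 others. The TA difference was 2.68 ± 0.45 (6.42-fold) and the QF difference -0.20 ± 0.45 (limma adjusted p = 1). A second probe set for Ibsp, 97572_at, had readings of 20.92, 78.44 and 92.17 in Dysf_null_TA, against 63, 55.91 and 97.84 in Control_TA. Its QF readings were 66.65, 29.81 and 36.46 in Dysf_null mice and 124.4, 29.46 and 59.06 in Control mice. It gave -0.35 ± 0.60 in TA and -0.53 ± 0.60 in QF with overlap in both, so 97572_at did not show the TA difference of 100476_at. Its own direction in TA was not determined: the difference was smaller than its SE. Without Dysf_null_TA replicate 1, the array at the floor, it was 0.28.

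Probe set 97519_at read 1271, 1283 and 1312 in Dysf_null_TA, against 103.4, 129.5 and 159.5 in Control_TA. In QF it read 263.9, 241.2 and 325.7 in Dysf_null mice and 197.7, 219.3 and 283.1 in Control mice. The 3 Dysf_null_TA arrays were nearly alike (SD 0.02 on the log2 scale). All 3 Control_TA arrays lay below all 3 Control_QF arrays, as they did for Acp5 and for 99957_at of Mmp9 (3 of the 11, beside 5.6% of all probe sets tested). Low Control_TA values were part of the choice of the genes, so nothing is read from this count. The TA difference was 3.32 ± 0.21 (10.01-fold), and the QF difference 0.25 ± 0.21 (limma adjusted p = 0.984), with a positive sign in each pair of QF arrays of the same number (0.42, 0.14 and 0.20).

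Dmp1 codes for an acidic phosphoprotein of osteocytes, and its gene is next to Ibsp on chromosome 5 in the RefSeq gene order. Its intensity was 72.62, 48.79 and 57.38 in Dysf_null_TA, against 44.35, 16.06 and 2.258 in Control_TA. In QF it was 49.23, 27.58 and 41.04 in Dysf_null mice, against 11.89, 38.98 and 16.5 in Control mice. These values were low: 2 arrays of each Control group were at the floor, and the Dysf_null_TA arrays overlapped the Dysf_null_QF arrays. The TA difference was 1.04 ± 0.35 (2.05-fold) and the QF difference 0.48 ± 0.35 (limma adjusted p = 0.984). Of the other genes at that place on chromosome 5, Dspp, an acidic protein of dentin, was at the floor on all 6 TA arrays. Sparcl1, a matrix glycoprotein beyond Dspp, differed by -0.07 ± 0.21 in TA and by 0.51 ± 0.21 in QF (limma adjusted p = 1 and 0.621; with the replicate number as a block, the QF value was 0.0228).

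Alpl codes for tissue-nonspecific alkaline phosphatase, which osteoblasts need for mineralisation and which endothelial cells also express. It read 104, 112.5 and 104 in Dysf_null_TA, against 61.16, 59.06 and 85.97 in Control_TA. In QF it read 101, 10.45 and 91.98 in Dysf_null mice and 86.1, 22.63 and 57.97 in Control mice. The arrays numbered 2 were at the floor in both QF groups, and elsewhere Dysf_null QF reached nearly the level of Dysf_null TA. The difference of Alpl was 0.66 ± 0.57 in TA (1.58-fold). In QF the difference of floored values was 0.30 ± 0.57 (limma adjusted p = 1), which gives no size. Phex, a membrane peptidase of osteocytes that acts on phosphate balance, was near the floor everywhere: its highest reading was 29.66, in Dysf_null_TA, and 5 of 12 arrays were above the floor. The difference of floored Phex values was 0.21 in TA, where all 3 Control arrays were at the floor, and -0.02 ± 0.18 in QF, with overlap in both muscles, so that neither gives a size.

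**Figure D1:**
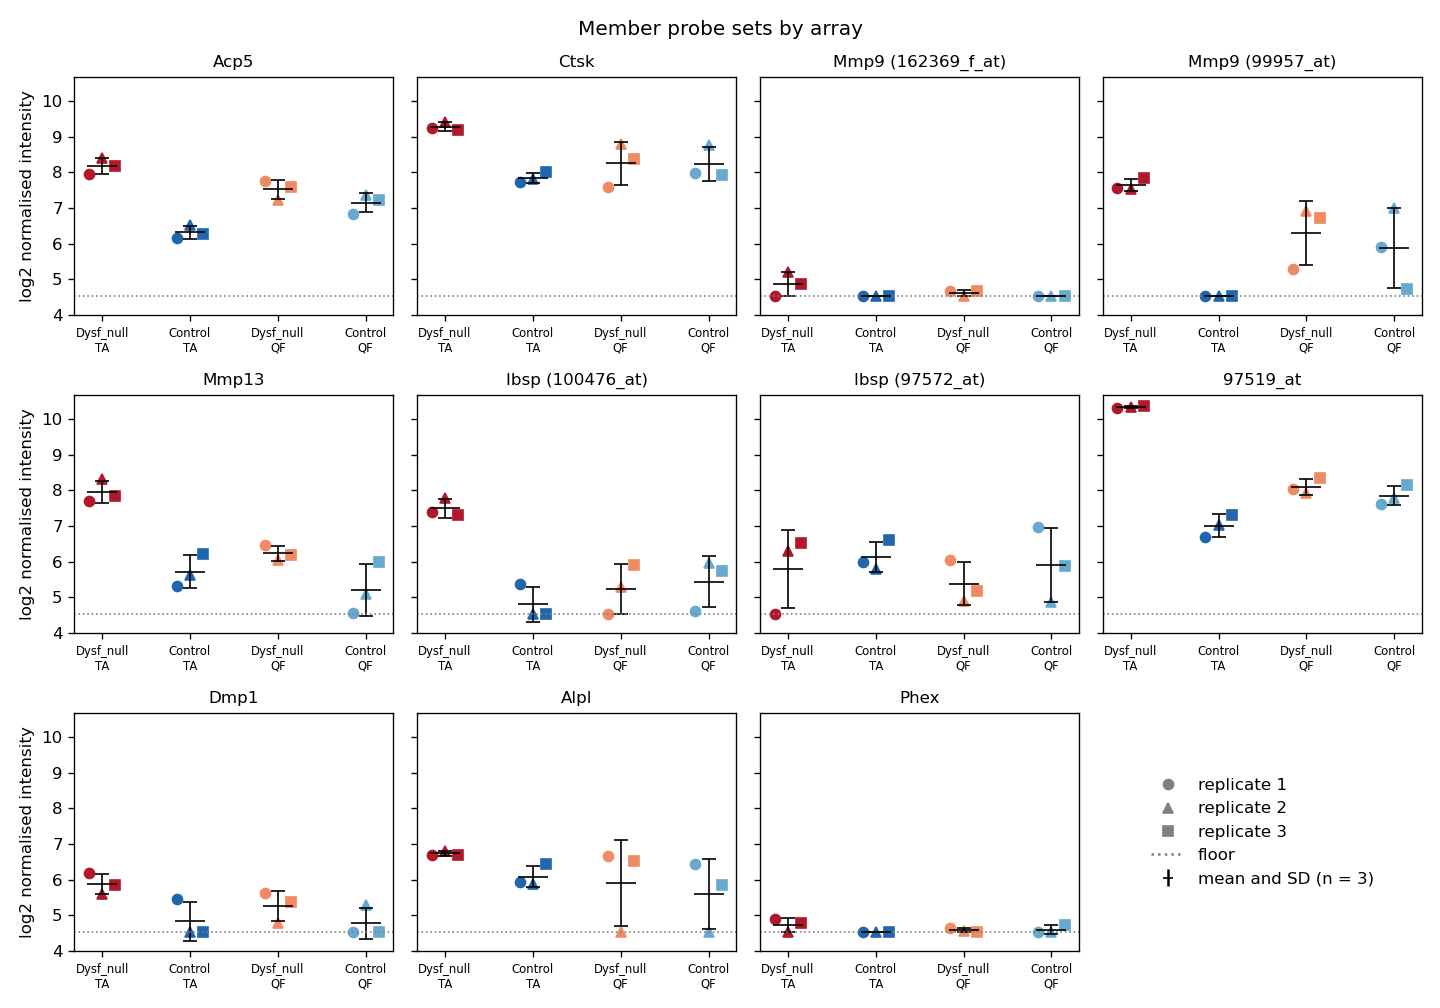
Log2 normalised intensity of each of the 11 probe sets (y axis) on every array by group (x axis, 3 arrays each); symbols give the replicate number, black bars the mean and SD, and the dotted line the floor of 4.53. For Acp5, Ctsk, Mmp9 (99957_at), Mmp13, Ibsp (100476_at), 97519_at and Alpl, 7 of the 11, the 3 Dysf_null_TA arrays lie above the other 9.

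Across the group, then, 8 of 11 probe sets had all Dysf_null_TA arrays above all Control_TA arrays, where 6.92% of all probe sets tested did so; since this contrast chose them, nothing is read from that count. The adjusted p of 5 of the 11 was under 0.05 in the TA fit (0.407% of all probe sets, 42 of 10331), which is likewise only a description. Within TA the size differed widely among them, from 3.32 for 97519_at and at least 3.12 for Mmp9 to 0.66 for Alpl. Phex and Mmp9 162369_f_at were limited by the floor. The difference of Ibsp 97572_at was negative but smaller than its SE. For 7 of the 11 the Dysf_null_TA arrays stood above the other 9 arrays, QF included, which held for 0.861% of all probe sets tested. High Dysf_null_TA values were part of the choice of the genes, so nothing is read from this count either. Dmp1 and Phex, the osteocyte genes, were at or near the floor on many arrays.

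In QF, 0 of the 11 probe sets passed, 0 higher and 0 lower (limma, adjusted over 10331 probe sets), and 1 of them, Mmp13, had an unadjusted p under 0.05. In that comparison 0.455% of all probe sets passed (47, with 31 higher and 16 lower), and 699 had an unadjusted p under 0.05. The QF differences were positive for 8 of 11 and negative for 3, with a median of 0.25, against -0.01 over all probe sets tested. Without both QF arrays numbered 2, again 0 passed: Dmp1 then gave 0.99 (adjusted p = 0.553), Acp5 0.66 (0.622), Mmp9 99957_at 0.71 and Alpl 0.46. The others then gave 0.32 (97519_at), 0.02 (Ctsk), 0.04 and -0.82 (Ibsp 100476_at and 97572_at), 0.15 (Mmp9 162369_f_at) and -0.05 (Phex). With replicate number as a block within each muscle, 0 of the 11 passed as well, with the lowest adjusted p at 0.211 (Mmp13), although 273 of all probe sets (2.64%) then passed. With an SE between 0.18 (Phex) and 0.60 (Ibsp 97572_at), a p that misses the threshold does not show equal levels.

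**Figure D2:**
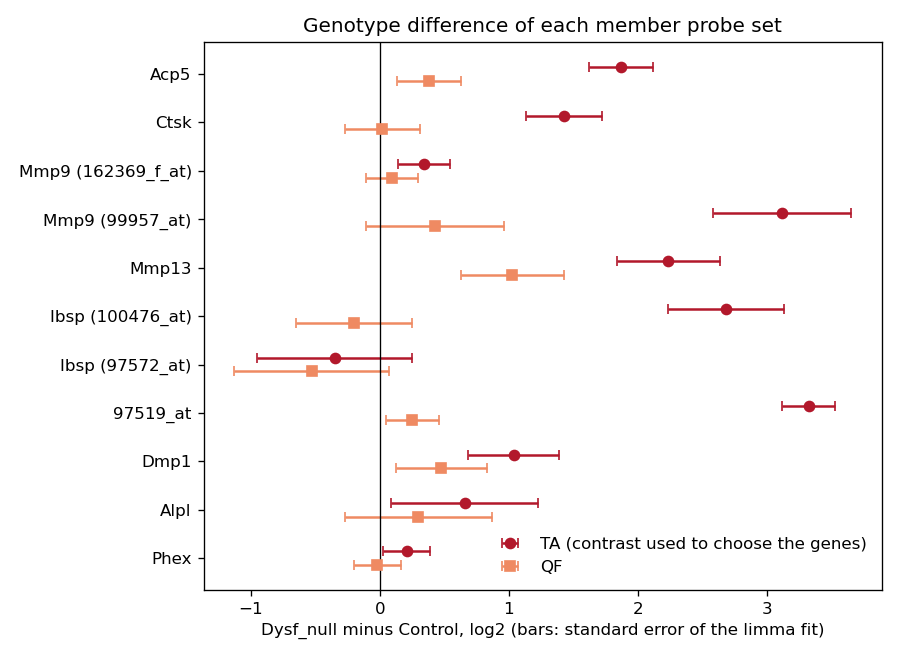
Difference between genotypes, Dysf_null minus Control on the log2 scale (x axis), for each of the 11 probe sets (y axis) in TA (circles) and QF (squares); bars are the SE of the limma fit, 3 arrays against 3. TA, the contrast that chose the genes, runs to 3.32, while in QF the highest is 1.03 (Mmp13) and 0 of 11 passed.

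Other osteoclast genes were then read from a list that leaves out Acp5, Ctsk and Mmp9. Of 13 tested, 1 rose in TA, 0 fell and 12 did not pass (0.252% of all probe sets rose), and in QF 0 of 13 passed in either direction (0.3% of all probe sets rose and 0.155% fell). The gene that rose was Car2, carbonic anhydrase II, which supplies the acid that osteoclasts secrete and is also abundant in red cells. It read 297.7, 304.8 and 283.1 in Dysf_null_TA, against 138.6, 146.2 and 123.1 in Control_TA. All Dysf_null_TA arrays were thus above all Control_TA arrays, with a difference of 1.12 ± 0.21 (limma adjusted p = 0.0374). The Car2 call was lost without any 1 of 8 arrays (each of the 6 TA arrays, Dysf_null_QF replicate 3 or Control_QF replicate 1; adjusted p up to 0.209), and with the replicate block its adjusted p was 0.00582. Tyrobp, an adaptor of osteoclasts and other myeloid cells, differed by 0.84 ± 0.32 in TA and 0.93 ± 0.32 in QF. Its genotypes did not overlap in either muscle, and it did not pass (limma adjusted p = 0.78 and 0.42). The transcription factor Nfatc1 differed in TA by 0.08, Tnfrsf11a (the RANKL receptor) by -0.03 and the chloride channel Clcn7 by -0.07. The proton pump subunit Tcirg1 differed by 0.33 ± 0.39 with all Dysf_null_TA arrays above Control_TA, and none of the 4 passed. Such a separation in TA was found for 3 of the 13 (Car2, Tyrobp and Tcirg1), beside 6.92% of all probe sets tested, while Traf6 had all Dysf_null_TA arrays below Control_TA. Calcr, the calcitonin receptor, was at the floor on all 3 Dysf_null_TA arrays. The median over the 13 was 0.05 in TA and -0.03 in QF, against 0.00 and -0.01 over all probe sets. Their summed intensity was 2034 to 2156 in Dysf_null_TA and 1638 to 1827 in Control_TA, without overlap. In QF it was 1660 to 3459 in Dysf_null mice and 1691 to 3089 in Control mice, with overlap.

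Of 12 genes of RANKL, M-CSF and osteoclast signalling, 1 rose in TA and 11 did not pass, and in QF 0 passed. In TA 0.252% of all probe sets rose. Fos, a subunit of AP-1, read 407, 461.7 and 474.9 in Dysf_null_TA, against 110.4, 117.8 and 85.6 in Control_TA, and 303.3, 228 and 462.5 in Dysf_null_QF, against 80.7, 78.7 and 188.5 in Control_QF. It was higher in Dysf_null arrays of both muscles without overlap, by 2.11 ± 0.34 in TA (limma adjusted p = 0.0151) and 1.58 ± 0.34 in QF (0.0813, and 0.00268 with the replicate block). The TA call was lost without any 1 of the 6 TA arrays (up to 0.105). The ligand RANKL itself (Tnfsf11) was above the floor on 4 of 12 arrays, and its TA difference of floored values, -0.10, gives no size. Its decoy receptor Tnfrsf11b differed by 0.08 ± 0.43, the growth factor Csf1 by 0.36 ± 0.23 and the M-CSF receptor Csf1r by 0.21 ± 0.31, all in TA and none passing. With the replicate block Jund, another AP-1 subunit, also passed in TA (0.69, limma adjusted p = 0.0202). The list median was 0.17 in TA and -0.04 in QF.

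Osteoblast and bone matrix genes that are not among the 8 were mostly collagen and collagen-binding proteins, which fibroblasts of muscle also make. Of 7 tested, 0 passed in TA (7 positive, median 0.57), and in QF 1 rose and 6 did not pass (6 positive, median 0.70). In QF 0.3% of all probe sets rose. Sparc, a collagen-binding glycoprotein, rose in QF by 0.96 ± 0.13 (limma adjusted p = 0.00654), with 4130, 5017 and 3668 in Dysf_null_QF, against 2332, 2260 and 1963 in Control_QF. Without both QF arrays numbered 2 the Sparc difference was 0.87 and no longer passed (0.0604). The type I collagen chains Col1a1 and Col1a2 gave 0.77 ± 0.27 and 1.02 ± 0.44 in TA and 1.07 ± 0.27 and 1.33 ± 0.44 in QF; with the replicate block, by which 1.54% of all probe sets passed in TA, Col1a1, Col1a2 and Sparc passed in both muscles and Col5a2 in QF. Sparc differed by 0.48 and Col5a2 by 0.31 in TA, against 0.96 and 0.70 in QF, while Pth1r, the parathyroid hormone receptor, differed by 0.61 in TA and -0.08 in QF. None of these 3 passed the test of the difference between the muscles (interaction, limma adjusted p = 1 for each). Msx2 was at the floor on all 12 arrays. The summed intensity of this list was 17240 to 27610 in Dysf_null_TA and 10390 to 16850 in Control_TA. In QF the sum was 16340 to 23570 in Dysf_null mice and 7927 to 11570 in Control mice, so the genotypes did not overlap in either muscle. The brightest genes of the sum were Col1a1, Col1a2, Sparc and Col5a2, with mean log2 values of 10.6 to 13.4 in Dysf_null_TA. Dlx5, Pth1r and Omd, at 4.87 to 5.79 there, overlapped between the genotypes in both muscles. Of 6 other osteocyte and phosphate genes, 0 passed in TA (median 0.04) and 0 in QF (median 0.11), and Mgp, an inhibitor of calcification, differed by -0.28 ± 0.19 in TA.

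Cartilage, tendon, skin and marrow markers were read as well, since tissue attached to a muscle could carry them. Of 13 cartilage genes, 0 passed in either muscle (median 0.18 in TA, 0.02 in QF). Col11a1 was the cartilage gene with the highest TA difference, at 157.4, 139.6 and 170.4 in Dysf_null_TA, against 47.95, 48.68 and 77.25 in Control_TA (1.46 ± 0.46, adjusted p = 0.489). The defining collagen Col2a1 went the other way, by -1.01 ± 0.49 in TA, Acan, at the floor on all 3 Control_TA arrays, gave 0.61 from floored values, and Hapln1 was at the floor on all 12. The summed cartilage intensity was 1161 to 1354 in Dysf_null_TA, 933.1 to 1119 in Control_TA, 1136 to 1576 in Dysf_null_QF and 883.7 to 1577 in Control_QF, without overlap in TA. Of 8 tendon genes, 1 rose in TA and 2 in QF, beside 0.252% and 0.3% of all probe sets. Fmod, a collagen-binding proteoglycan, rose in TA by 1.51 ± 0.26 (limma adjusted p = 0.0202) and in QF by 1.51 ± 0.26 (0.0242), and Kera rose in QF by 1.42 ± 0.27 (0.0394). Each of these 3 calls was lost without some single arrays (4 for Fmod in TA, 4 for Fmod in QF and any of the 12 for Kera, with adjusted p up to 0.129, 0.107 and 0.113), while their direction held. Without both QF arrays numbered 2 the QF calls of Fmod (1.71, adjusted p = 0.0961) and Kera (1.17, 0.145) were lost, and with the replicate block Col14a1 passed in QF as well (1.03, limma adjusted p = 0.0136). Of 6 skin genes, 0 passed in either muscle (median 0.13 in TA, 0.12 in QF). Krt1 and Flg, a keratin and filaggrin of the epidermis, lay higher in Dysf_null_TA without overlap, by 1.34 ± 0.47 and 1.15 ± 0.54 (limma adjusted p = 0.655 and 1). These sizes rest partly on Control_TA readings under the floor (16.82 and 18.08 for Krt1, 20.83 and 18.69 for Flg). The keratins Krt14 and Krt15 were at the floor on all 12. The summed skin intensity was 516.6 to 638.9 in Dysf_null_TA, 447.8 to 478.9 in Control_TA, 418.1 to 1038 in Dysf_null_QF and 460.5 to 869.4 in Control_QF. The cartilage and skin sums thus were higher in Dysf_null_TA than in Control_TA, and their part in the bone gene differences was not tested.

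Granulocyte precursor genes of marrow had the highest list median in TA, 1.35, with 2 of 10 risen, 0 fallen and 9 positive. In QF 1 fell, 0 rose and the median was -0.38. Of all probe sets, 0.252% rose in TA and 0.155% fell in QF. All Dysf_null_TA arrays lay above all Control_TA arrays for 5 of the 10, beside 6.92% of all probe sets tested. In QF such a separation held for 0 of the 10, beside 4.08%. S100a9, a calcium-binding protein of neutrophils, read 159.8, 173.8 and 176.0 in Dysf_null_TA, against 18.1, 24.9 and 28.7 in Control_TA. In QF it read 12.6, 22.5 and 31.0 in Dysf_null mice, against 130.0, 62.3 and 89.0 in Control mice. The order of the genotypes was thus reversed between the muscles: the difference was 2.74 ± 0.33 in TA (limma adjusted p = 0.00179) and -1.82 ± 0.33 in QF (0.028, lost without any 1 of 9 arrays, up to 0.108, and 0.0491 without both QF arrays numbered 2). The 2 differences themselves differed by 4.56 ± 0.46 (interaction, limma adjusted p = 0.00115), a test that 0.0678% of all probe sets passed. S100a9 was at the floor on Control_TA replicate 1 and Dysf_null_QF replicates 1 and 2, so these sizes rest partly on floored values. Its partner S100a8 rose in TA by 2.32 ± 0.38 (0.0164, lost without any 1 of 5 TA arrays, up to 0.116), and Ngp and Camp, granule proteins of maturing neutrophils, gave 2.02 ± 0.47 and 1.48 ± 0.37 (0.152 and 0.22, both passing with the replicate block). With that block S100a8 (-1.58) and Camp (-1.26) also fell in QF (limma adjusted p = 0.0457 and 0.0268). Of the other tested genes of the list, Chil3 gave 1.53 ± 0.40 in TA without overlap. Ltf gave 1.22 ± 0.76, Prtn3 0.71 ± 0.39, Mpo 0.61 ± 0.58, Elane 0.10 ± 0.33 and Lcn2 -0.19 ± 0.30, all with overlap. The list median therefore does not hold for all its genes. The summed intensity of the 14 genes of the list was 1401 to 1466 in Dysf_null_TA, 539.2 to 693.2 in Control_TA, 540.9 to 662.9 in Dysf_null_QF and 869.4 to 1059 in Control_QF. The sum was thus highest in Dysf_null_TA, while in QF it was higher in Control than in Dysf_null arrays without overlap. High Dysf_null_TA values were part of the choice of the bone genes, so nothing is read from this match. The part of granulocyte precursors in the difference of the bone genes was not tested.

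Of 8 erythroid genes, 2 rose, 0 fell and 6 did not pass in TA (median 0.23), and 0 passed in QF (median 0.17). In TA 0.252% of all probe sets rose. Alas2, the haem synthesis enzyme of red cell precursors, read 1423, 1065 and 983.1 in Dysf_null_TA, against 301.3, 287.6 and 269.2 in Control_TA (2.00 ± 0.23, limma adjusted p = 0.00179). Hba-a1, an alpha globin gene, rose by 0.82 ± 0.14 (0.0201), a call lost without any 1 of 5 TA arrays (up to 0.122) or without both QF arrays numbered 2 (0.0704). Klf1, the erythroid transcription factor, went the other way without overlap, by -0.99 ± 0.54 in TA (adjusted p = 1). In QF they differed by 0.96 and 0.53, passing with the replicate block (limma adjusted p = 0.00235 and 0.0271) and not without it (0.133 and 0.183). The summed erythroid intensity was 21970 to 25060 in Dysf_null_TA, 11540 to 15510 in Control_TA, 20400 to 26740 in Dysf_null_QF and 15470 to 15980 in Control_QF, so that it was higher in Dysf_null arrays of both muscles. Hba-a1 alone made up 91.8% to 96.3% of this sum on the Dysf_null_QF arrays and at least 92.6% on all others. The other 10 genes summed to 1423 to 1859 in Dysf_null_TA, 664.8 to 756.6 in Control_TA, 997.9 to 1681 in Dysf_null_QF and 716.1 to 1108 in Control_QF, with overlap in QF. B cell precursor genes gave no call among 11 (median 0.21 in TA, -0.09 in QF), their sum was 1003 to 1139 in Dysf_null_TA, 903.5 to 1043 in Control_TA, 1079 to 1328 in Dysf_null_QF and 976 to 1560 in Control_QF, and Rag2 was at the floor on all 12. With the replicate block Ighm, the immunoglobulin heavy chain, passed in TA (0.66, limma adjusted p = 0.0401). The part of these cells in the bone gene differences was not tested.

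Macrophage and cytokine genes were the lists of inflamed tissue. Of 16 macrophage genes, 0 rose, 1 fell and 15 did not pass in TA (median 0.21), and 0 passed in QF (median 0.15). In TA 0.155% of all probe sets fell. The gene that fell was Cd68, a lysosomal membrane protein of macrophages and osteoclasts, with 177.4, 161.1 and 147 in Dysf_null_TA, against 382.2, 389.9 and 394.3 in Control_TA (-1.27 ± 0.19, limma adjusted p = 0.0104). The Cd68 call was lost without any 1 of 5 TA arrays (up to 0.0767). Lyz2, lysozyme of myeloid cells, and C1qa, a complement protein of macrophages, lay higher without overlap in both muscles, by 0.57 ± 0.19 and 0.60 ± 0.21 in TA and by 0.82 ± 0.19 and 0.62 ± 0.21 in QF, none passing. With the replicate block Lyz2 passed in QF (limma adjusted p = 0.0136) and C1qa in both muscles (0.0282 in TA and 0.0178 in QF). All Dysf_null_TA arrays lay above all Control_TA arrays for 4 of the 16 macrophage genes, beside 6.92% of all probe sets tested. In QF such a separation held for 2 of the 16, beside 4.08%. Summed macrophage intensity was 3981 to 4571 in Dysf_null_TA, 3413 to 4138 in Control_TA, 4309 to 4887 in Dysf_null_QF and 3334 to 3955 in Control_QF. Of 14 cytokine and chemokine genes, 0 passed in either muscle (median 0.20 in TA, -0.01 in QF), and with the replicate block Cxcl12 passed in QF (0.73, limma adjusted p = 0.0364). Il1b, Ccl4, Ccl5, Ptgs2, Tgfb1 and Il10 were at the floor on all 12 arrays. Ccl9, a chemokine of macrophages and osteoclasts, gave 0.81 ± 0.32 in both muscles. It passed with the replicate block (limma adjusted p = 0.0243 in TA and 0.0172 in QF) and not without it (0.812 and 0.574). In TA all Dysf_null arrays lay above all Control arrays for 4 of the 14, beside 6.92% of all probe sets tested. Besides Ccl9 these were Ccl2 (0.63 ± 0.29), Ccl7 (0.62 ± 0.28) and Ccl8 (1.02 ± 0.60), none passing. In QF such a separation held for 1 of the 14, Ccl2 (0.89 ± 0.29, limma adjusted p = 0.36), beside 4.08%. The summed cytokine intensity was 1216 to 1398 in Dysf_null_TA, 900.2 to 1063 in Control_TA, 1004 to 1394 in Dysf_null_QF and 726.8 to 993.4 in Control_QF. Both sums were therefore higher in Dysf_null arrays of both muscles, apart from an overlap of the macrophage sum in TA, and their part in the bone gene differences was not tested.

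**Figure D3:**
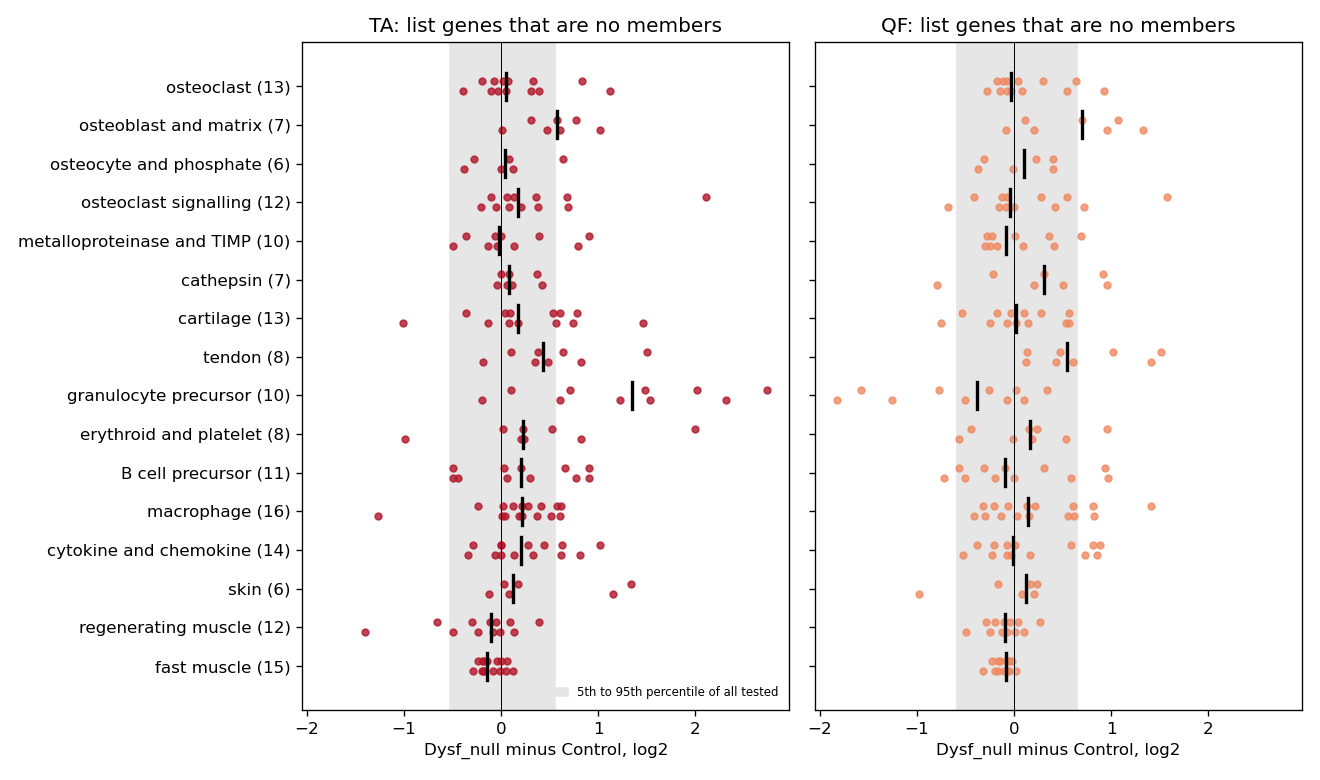
Genotype difference of each listed gene other than the 8 (points, Dysf_null minus Control, log2, x axis) by list (y axis, number of genes in brackets), in TA (left) and QF (right); black ticks are list medians and the grey band covers most single probe sets of the array. Granulocyte precursor genes have a median of 1.35 in TA and -0.38 in QF, and osteoclast genes 0.05 and -0.03.

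**Figure D4:**
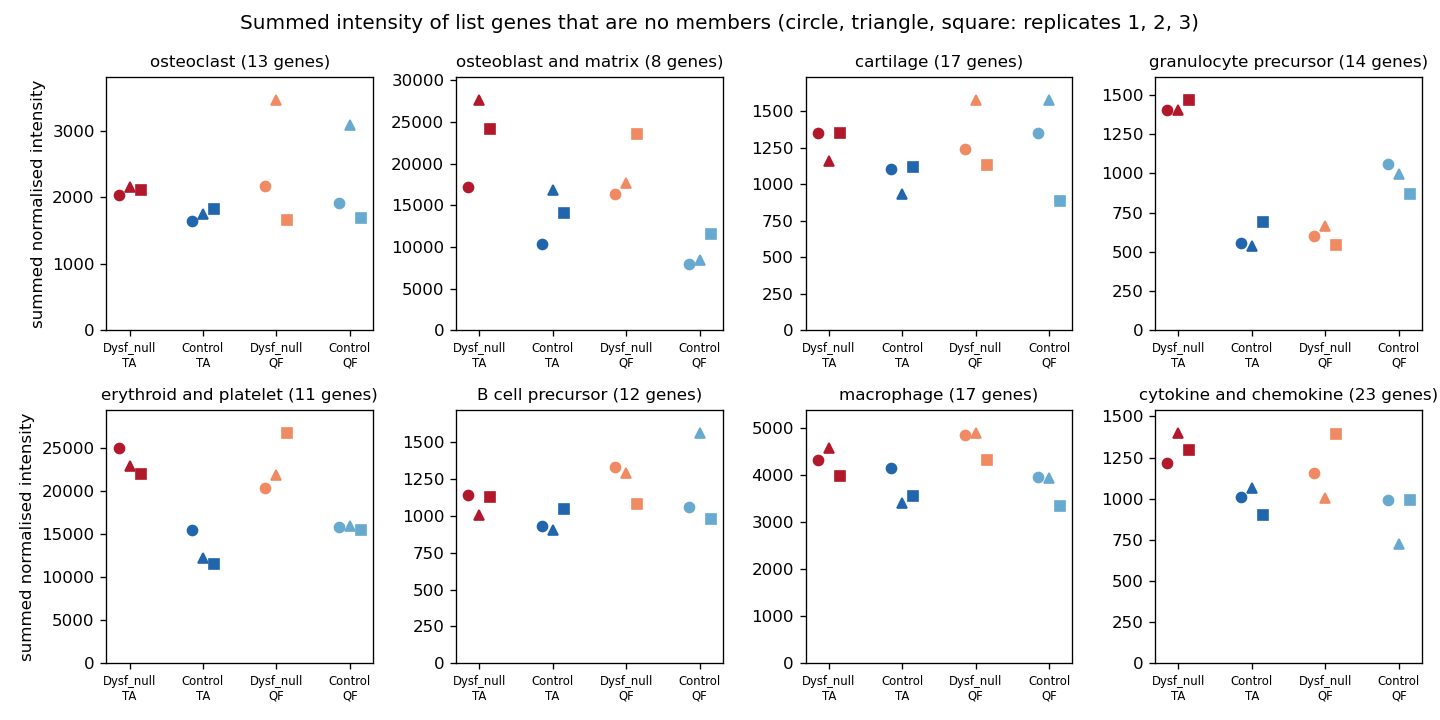
Summed normalised intensity (y axis, from 0) of the listed genes other than the 8, for each array by group (x axis). The granulocyte precursor sum is 1401 to 1466 in Dysf_null_TA and at most 1059 elsewhere, while the osteoclast sum is highest on the 2 QF arrays numbered 2 (3459 and 3089). In TA the osteoclast sum is 2034 to 2156 in Dysf_null mice and 1638 to 1827 in Control mice. The osteoblast sum, whose brightest genes are Col1a1, Col1a2, Sparc and Col5a2, is higher in Dysf_null arrays of both muscles without overlap.

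Other genes of the protease families were read as well. Of 10 other metalloproteinase and inhibitor genes, 0 passed in TA (median -0.02) and 0 in QF (median -0.08). Of these 10, 3 (Timp1, Timp2 and Reck) had all Dysf_null_TA arrays above all Control_TA arrays, beside 6.92% of all probe sets tested. In TA the difference was 0.13 ± 0.42 for Mmp2, 0.00 for Mmp14, -0.36 ± 0.29 for Mmp3 and -0.04 ± 0.32 for Mmp12, the last of which lies next to Mmp13 on chromosome 9. The inhibitors Timp1 and Timp2 differed in TA by 0.91 ± 0.41 and 0.79 ± 0.22, but did not pass (limma adjusted p = 1 and 0.325), and Mmp7, Mmp16, Mmp24 and Adam8 were at the floor on all 12. Of 7 other cathepsin genes, 0 passed in TA (median 0.08), and in QF Ctsl fell by 0.79 ± 0.12 (limma adjusted p = 0.0102, and 0.0941 without both QF arrays numbered 2) with 0 rising. In QF 0.155% of all probe sets fell. Of these 7, 2 (Ctsh and Ctss) had all Dysf_null_TA arrays above all Control_TA arrays, beside the same 6.92% of all probe sets. With the replicate block Ctsh passed in QF (0.96, limma adjusted p = 0.0123). Ctss, a macrophage cathepsin whose gene is next to Ctsk on chromosome 3, differed by 0.42 ± 0.28 in TA and by 0.92 ± 0.28 in QF (limma adjusted p = 1 and 0.296; with the replicate block, the QF value was 0.00823). Of 12 genes of regenerating and embryonic muscle, 0 passed in either muscle (median -0.10 in TA and -0.09 in QF), and perinatal myosin Myh8 gave -1.41 ± 0.30 in TA (adjusted p = 0.101, and 0.0375 with the replicate block). With that block the muscle regulatory factor Myf6 fell in QF (-0.50, limma adjusted p = 0.0193). None of Mmp12, Mmp3, Ctss, Dspp and Sparcl1, the measured neighbours of Mmp13, Ctsk, Ibsp and Dmp1 named here, passed in TA.

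The genes whose levels ran most like each of these over the 12 arrays are given by Pearson's r, as a description across arrays that share their labels, with no test. Acp5 ran with Isg20 (0.916), H2-D1 (0.885), Car2 (0.875) and Alas2 (0.873). Probe set 97519_at ran with Car2 (0.927), Hcfc1 (0.851) and Cd44 (0.831). Car2 was among the 5 most alike for both of these. Ctsk and Mmp9 (99957_at) shared Btg2 (0.868 and 0.933) and Tnc (0.869 and 0.887); Tnc codes for tenascin C of tendon and injured tissue. Mmp13 ran with Cd34 (0.910), Tmem176a (0.908) and Cpa3 (0.874), and Ibsp (100476_at) with Fzd1 (0.857) and Chil3 (0.836). Alpl ran with Mob1a (0.971) and Trip6 (0.964), and Dmp1 with C3ar1 (0.806).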

How the data were processed

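The authors deposited an unlogged intensity for each probe set on each array. Leaving out the lowest and highest 2%, every array averaged 200.1 to 200.2, which shows that the authors had scaled them alike. Which software made these intensities, and how it handled background, is not given in the sources used here. Of 12488 probe sets, 66 controls were left out, and the other 12422 were quantile normalized, floored at the 25th percentile (23.02, log2 4.53; this took in 4 values of 0) and log2 transformed. Tests ran on the 10331 that exceeded the floor on 3 or more arrays. Symbols came from the platform annotation: 10833 probe sets had 1 symbol, 396 several and 1193 none, and only the first kind was named. Looking the genes up in RefSeq (GRCm38.p6) changed 0 symbols.

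The 4 group means were estimated from the 12 arrays with limma 3.58.1 (R 4.3.3), using 8 residual degrees of freedom, eBayes with a variance trend and two-sided tests. Adjustment was by Benjamini-Hochberg over the 10331, and an adjusted p under 0.05 was a call. No depth applies to arrays: their number limits the precision, and the median SE was 0.323. Where every array of the lower group, and none of the higher, was at the floor, the difference is given as at least that size; with arrays of both at the floor it is a difference of floored values and no size. In simulated data for the QF comparison (10344 probe sets), the fit recovered 27 of 100 probe sets changed 2-fold and 83 of 100 changed 4-fold, and called 12 unchanged ones. Only brighter probe sets were changed, and the simulated noise was independent among arrays. These rates therefore do not hold for the dim members or for arrays that vary together. The members and the 17 gene lists were chosen with earlier results of these data known. A list gene was read from its probe set with the highest mean. Named were every member probe set, up to 4 genes of each list with the smallest p in each muscle, marker genes at the floor on all 12 arrays, and for each member whose TA groups did not overlap the genes most like it, out of the 5 with the highest r. Nfatc1, Tnfrsf11a, Clcn7, Tcirg1, Calcr, Tnfsf11, Tnfrsf11b, Csf1r, Acan, Pth1r, Mpo, Elane, Prtn3, Ltf, Lcn2, Mmp2, Mmp12 and Mmp14 were named for their known roles or their place beside a member, or their direction, after their values were seen.

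The arrays of the same replicate number were checked for pairing by the correlation of their deviations from the group mean, which was 0.39, 0.711 and 0.66 in QF and 0.182, 0.114 and 0.231 in TA for numbers 1, 2 and 3. All were above 0.1, so a fit with the number as a block within each muscle was run beside the one above. Other alternatives were deposited values with no further normalization, median scaling, another floor or none, other filters, no variance trend, array weights, 1 muscle alone, and leaving out single arrays or both QF arrays numbered 2. Plots used matplotlib 3.10.9 under Python 3.11.15.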

Additional observations from a re-analysis of the deposited data

Results flagged for a closer look

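The genotype difference of 2 granulocyte genes, out of 172 listed genes outside the members tested for this, was not the same in TA and QF by the interaction term of the limma fit. For S100a9 the TA difference exceeded the QF difference by 4.56 ± 0.46 on the log2 scale (limma adjusted p = 0.00115), and for S100a8 by 3.90 ± 0.54 (0.0128). The S100a9 size rests partly on arrays at the floor. Over all 10331 probe sets, 7 (0.0678%) passed this test. The members' own TA values chose them, so this test was not made for them. With 3 arrays in each group, no outlier test was run on the values of single genes.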

How the results depend on the processing

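No member probe set passed in QF under any alternative run (0 in each, 0 to 0 when single arrays were left out), so no member call depended on the processing. The replicate block changed no other call of a gene named in the report than those given there, and 0 member calls. Of all probe sets, 47 passed in QF, against 0 with median scaling, 7 with no variance trend, 23 with array weights, 0 with QF fitted alone, 273 with the replicate block and 16 without both QF arrays numbered 2. In TA 42 passed, against 27 with median scaling, 192 with array weights and 159 with the block. Leaving out single arrays gave 21 to 82 in QF (lowest without Dysf_null_QF replicate 3, highest without Control_QF replicate 3; also 22 when Control_QF 1 was left out, 26 for Dysf_null_QF 1, 27 for Control_QF 2, 28 for Dysf_null_TA 3, 29 for Control_TA 2 and 30 for Dysf_null_TA 2). In TA it gave 14 to 45 (Dysf_null_TA 1, 2 and 3 left out in turn gave 25, 17 and 14; Control_TA 1, 2 and 3 gave 23, 19 and 19). The cause was not tested; fewer arrays are part of the last 2 ranges. The count of members with non-overlapping TA arrays was 8, and 8 to 9 without single arrays. In QF that count was 1, against 5 without Dysf_null_QF 2 or without both arrays numbered 2, and 2 without Control_QF 2 or Control_QF 3. The floor set the size of the dim members' TA differences: with the floor at the 10th percentile Mmp9 99957_at gave 4.17 and 162369_f_at 1.65, Dmp1 1.74 and Phex 0.49, and with log2(value + 16) Ibsp 100476_at gave 2.20. The QF difference changed sign in some alternatives for Ctsk (-0.26 to 0.35), Mmp9 99957_at (-0.14 to 1.00), Ibsp 100476_at (-0.70 to 0.16), Alpl (-0.24 to 1.00) and Phex (-0.07 to 0.11), and stayed above 0 for Mmp13 (0.71 to 1.41), Acp5, Dmp1 and 97519_at. In TA the difference of Ibsp 97572_at changed sign as well (-0.72 to 0.28). Signal over background limited Phex, Dmp1 and Mmp9 162369_f_at, which were above the floor on 5, 8 and 4 arrays.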
